A study of Mus musculus with 12 samples.

Results

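Untreated B cells of mouse spleen were compared between a double knockout (DKO) of Hnrnpa1 and Hnrnpa2b1 and wild type (WT). The comparison used 6 of the series' 12 libraries, chosen by their labels: 3 of untreated DKO cells and 3 of untreated WT cells, numbered 1 to 3 in each genotype. DKO alleles were made with Cre and loxP, and the labels give neither the promoter that drives Cre nor the strain, age or sex of the mice. Other libraries entered where stated, namely 2 of DKO cells and 2 of WT cells stimulated during 48 h by anti-CD40 at 1 µg/mL and anti-IgM at 10 µg/mL, and 2 of additional WT untreated cells. In all groups cells carrying CD43 had been removed with magnetic beads and RNA had been selected for poly(A). Whether each library stands for its own animal is not stated in the labels, and the p-values therefore reflect the spread among these libraries alone.

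The products of the targeted genes, hnRNP A1 and hnRNP A2B1, are abundant nuclear proteins that bind RNA while it is being made. They help to decide which exons are kept, and they accompany RNA to the cytoplasm. In other cells hnRNP A1 binds the hairpin of the miR-18a precursor, and hnRNP A2B1 binds the Microprocessor component DGCR8. Counts here are of whole genes, so splicing itself was not analysed here.

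Transcripts of both targeted genes were lower in each DKO library. Hnrnpa1 (chr15:103148859-103155119, plus strand, GRCm39) had 78.5, 206 and 102 CPM in the DKO libraries and 727, 708 and 694 CPM in the WT libraries, where CPM are counts relative to library size, scaled with TMM factors, and values follow the library numbers 1, 2 and 3. Hnrnpa2b1 (chr6:51437912-51446874, minus strand) had 342, 639.7 and 397 CPM in the DKO libraries and 1981, 1751 and 1894 CPM in the WT libraries. The DKO library numbered 2 kept the most of both. Log2 fold changes of DKO over WT were -2.46 ± 0.30 for Hnrnpa1 and -2.03 ± 0.20 for Hnrnpa2b1 (± standard error, edgeR's quasi-likelihood test, adjusted by Benjamini-Hochberg over all tested genes, adjusted p = 0.00217 and adjusted p = 0.00142).

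Of 55359 genes 13561 had enough counts to be tested, and 19.5% of them were called at an adjusted p of 0.05. In DKO cells 1195 genes were higher (8.81%) and 1443 were lower (10.6%). The higher genes changed less, with a median log2 fold change of 0.45 among those called, against -0.69 among the lower ones, and a change of 1 or more was reached by 196 and 427 of them, 4.59% of tested genes. For 39.2% of tested genes all DKO libraries lay on 1 side of all WT libraries. Depth was 15378747 to 19321253 counts per library. DKO 1 and WT 2 read as female from Xist and 4 Y-linked genes, the other 4 libraries as male, and a fit without this pair called 3421 genes. Fewer genes were called without DKO 1, DKO 2, DKO 3, WT 1 or WT 3 (2151, 1909, 1146, 1704 and 923), and 2779 were called without WT 2. When the 2 additional libraries were added to the WT group 319 were called, of which 315 were among the 2638. Of called genes counted in the joined table, both additional WT libraries lay beyond all DKO values on the WT side for 65.2% of those higher and 66.7% of those lower, and this number is given beside the main groups of genes described. It says nothing of the distance from WT 1 to 3. Hspd1 had 502 and 546 CPM in the additional WT libraries, against 1235, 1173 and 1183 CPM in WT 1 to 3.

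Cd22, an inhibitory receptor of B cells, was present in every library and had 132, 184 and 180.1 CPM in the DKO libraries and 315, 222 and 307 CPM in the WT libraries. It was itself lower in DKO cells (log2 -0.77 ± 0.16), as was Fcrla (log2 -0.67 ± 0.18), another B cell marker. The summed level of 12 B cell markers was 4860 to 5840 CPM in DKO and 6340 to 7040 CPM in WT libraries. Summed marker levels, here and below, are relative to the total count of the library, without TMM factors. In bulk RNA, fewer cells of a type and less RNA per cell cannot be told apart. Summed markers of 2 other cell types were lower than these, at 46.9 to 80.8 CPM in DKO and 77.2 to 102 CPM in WT libraries for 12 T cell genes and 103 to 129 CPM and 115 to 140 CPM for 13 myeloid genes, and Ly6g of neutrophils had no count. Plasma cell markers, 7 genes of which 6 were tested and 2 were lower, summed to 738 to 830 CPM in DKO and 749 to 873 CPM in WT libraries. Spn, which encodes the CD43 that the beads bind, had 14.7, 21.6 and 19.2 CPM in the DKO libraries and 40.2, 29.6 and 38.9 CPM in the WT libraries (log2 -0.97 ± 0.17). Rn18s, a ribosomal RNA that poly(A) selection should deplete, had 1576, 1172 and 4517 CPM in the DKO libraries and 503, 921 and 443 CPM in the WT libraries (log2 1.96 ± 0.48, adjusted p = 0.0235), highest in DKO 3. What part these levels have in the gene groups that follow was not tested. Leaving out 1 library ended the call of Cd22 (without WT 3) and Fcrla and Rn18s (without DKO 3, WT 1 or WT 3), with adjusted p up to 0.098.

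Gene groups moved in opposite directions. Listed long noncoding RNAs and genes of the spliceosome, translation, mitochondrial biogenesis, cytosolic folding and nucleotide synthesis were called mostly as higher in DKO cells. Genes of lysosomes, ion channels, lipid signalling, the cytoskeleton and fatty acid oxidation were called mostly as lower. Counts below are of list members called over all genes tested, to be read against the 8.81% and 10.6% of all tested genes. Lists and members were chosen with earlier results of these data known, so the list shares are not independent of the data. Counts in stimulated cells are to be read against the 5.09% higher and 6.17% lower there. The share called also varied with level. Among protein-coding genes 3.5% were higher in the lowest of 5 equal bins by mean CPM and 15.5% in the highest. The shares lower were 14.7% and 7.89%, and list shares were not adjusted for level. With the additional libraries in the WT group, 0 noncoding RNA, 2 spliceosome, 0 translation, 0 mitochondrial ribosomal and 1 import genes were called higher. Higher calls also numbered 0 for cytosolic folding, 0 for nucleotide synthesis and 0 for Polycomb. Lower calls were 1 lysosomal, 5 channel and calcium, 3 phosphoinositide 3-kinase, 3 G protein, 2 lipid and 0 actin genes. Lower adhesion genes then numbered 4 and lower fatty acid oxidation genes 5. For lists given below with 0 calls in a direction by edgeR, 0 to 3 members passed an unadjusted p of 0.05 in that direction. DESeq2 called 0 there, except 1 lower microRNA host. Another exception is that 6 tRNA synthetases passed the unadjusted p as higher.

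**Figure D1:**
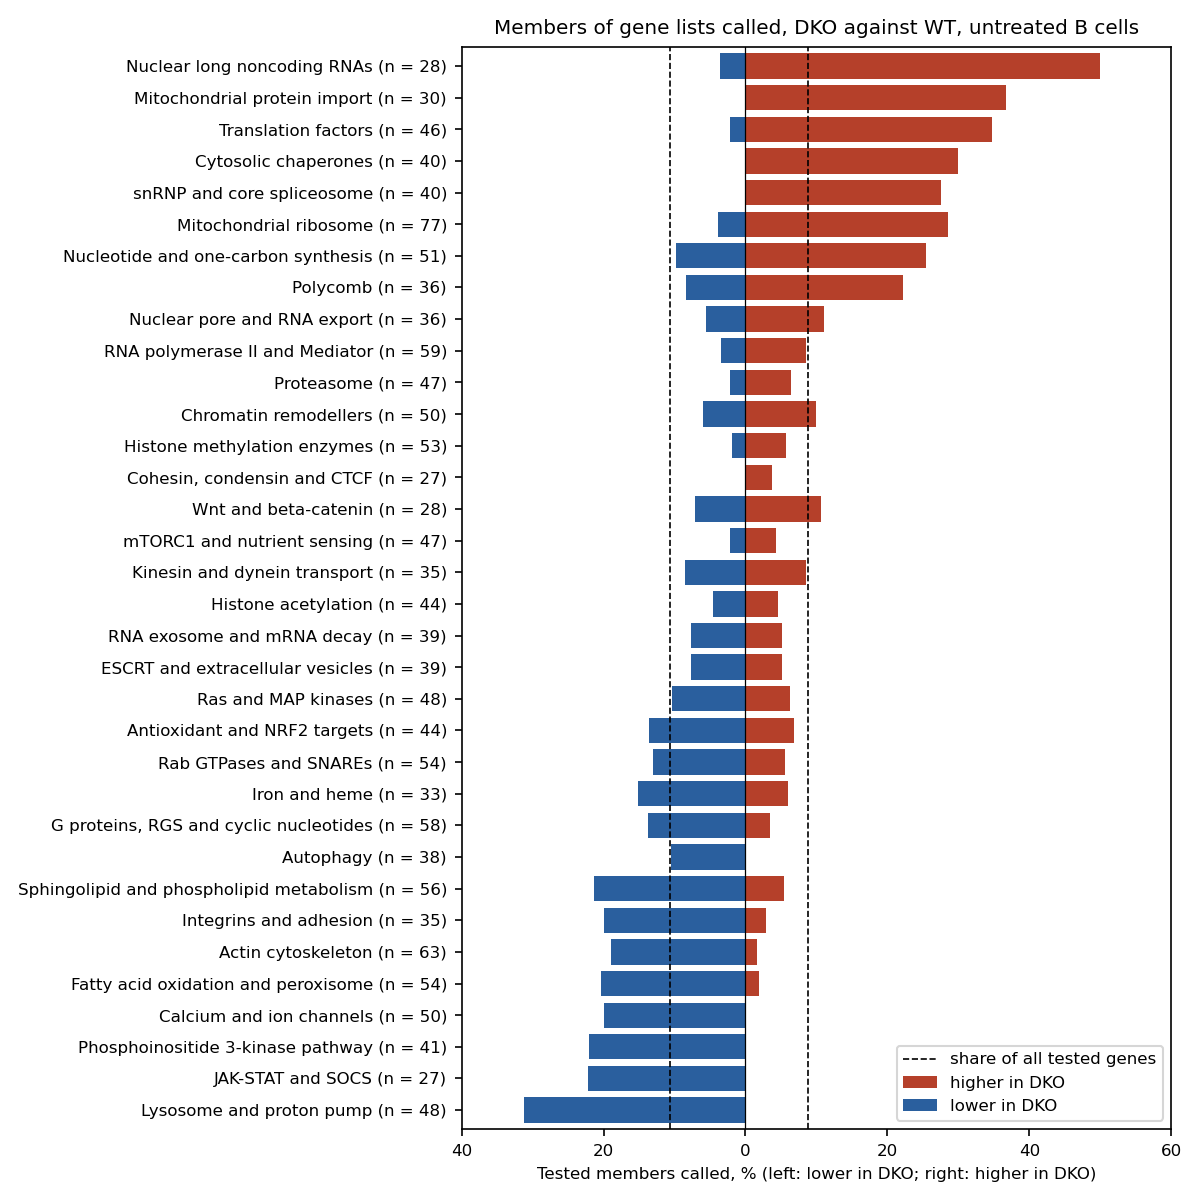
Share of the tested members of each gene list that were called in untreated DKO against WT cells, in percent, for the reported lists with 25 or more tested genes (lower in DKO to the left, higher to the right). Dashed lines mark the shares over all tested genes, 10.6% lower and 8.81% higher. The lists were chosen with earlier results of these data known. Nuclear long noncoding RNAs stand at the top and lysosomal genes at the bottom.

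MicroRNAs are cut from long primary transcripts in the nucleus by the Microprocessor, a complex of the nuclease Drosha and the RNA-binding protein DGCR8. Of 18 tested primary microRNA host transcripts, 2 were higher in DKO cells and 0 lower. They were Mir17hg, which carries the miR-17 to miR-92a cluster known to restrain pro-apoptotic Bim in lymphocytes, and Mir155hg, which carries miR-155, needed for germinal centre responses. The mature microRNAs of these hosts follow, with the seed (bases 2 to 8, which pair with targets) in capitals, since the seed is what groups these microRNAs by target. Sequences are from RefSeq on GRCm38.p6, the first 6 from the plus strand of chromosome 14 and the last from the plus strand of chromosome 16.
miR-17-5p: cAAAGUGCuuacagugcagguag
miR-20a-5p: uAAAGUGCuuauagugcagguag
miR-18a-5p: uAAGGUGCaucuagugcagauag
miR-19a-3p: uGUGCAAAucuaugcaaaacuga
miR-19b-3p: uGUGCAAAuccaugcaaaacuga
miR-92a-3p: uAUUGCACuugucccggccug
miR-155-5p: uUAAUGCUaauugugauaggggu
MiR-17 and miR-20a share a seed, and so do miR-19a and miR-19b. Poly(A) RNA counts say nothing of the mature forms, which were not measured. The call was lost with 1 library left out for Drosha (without DKO 2, DKO 3, WT 2 or WT 3), with adjusted p up to 0.112.

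Mir17hg (chr14:115280311-115284159, plus strand, GRCm39) had 125, 127 and 119 CPM in the DKO libraries and 84.4, 84.8 and 86.8 CPM in the WT libraries, a log2 fold change of 0.54 ± 0.07 (adjusted p = 0.00234). Mir155hg (chr16:84500055-84512133, plus strand) had 477, 366 and 402 CPM in the DKO libraries and 212, 257 and 213 CPM in the WT libraries, a change of 0.87 ± 0.11 (adjusted p = 0.00282). All 3 DKO libraries lay above all 3 WT libraries for both hosts, and both additional WT libraries were on the WT side. In stimulated cells Mir17hg changed by 0.80 ± 0.19 (adjusted p = 0.0318) and Mir155hg by 1.25 ± 0.18 (adjusted p = 0.00639). Dgcr8 was higher too, with 146, 138 and 163 CPM in DKO cells, against 90.1, 93.6 and 86.8 CPM in WT cells (log2 0.72 ± 0.08, adjusted p = 0.00174). Drosha, whose protein cuts the Dgcr8 transcript as well, had 61.7, 59.8 and 58.1 CPM in DKO cells, against 69.3, 82.5 and 72.7 CPM in WT cells (log2 -0.32 ± 0.09, adjusted p = 0.0323). Both additional WT libraries had less Drosha than any DKO library, at 32.6 and 38.2 CPM. Srrt, which encodes the ARS2 protein that links capped RNA to the Microprocessor, was higher by a log2 of 0.27 ± 0.08. These were 3 of 18 microRNA machinery genes called, no larger a share than the 19.5% of all tested genes, and the 11.1% of hosts that were higher is near the 8.81% of all genes. Without DKO 3, WT 2 or WT 3 only 1 machinery gene was called. With 1 library fewer the threshold was missed by Srrt (without any 1 library but DKO 2), with adjusted p up to 0.178.

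**Figure D2:**
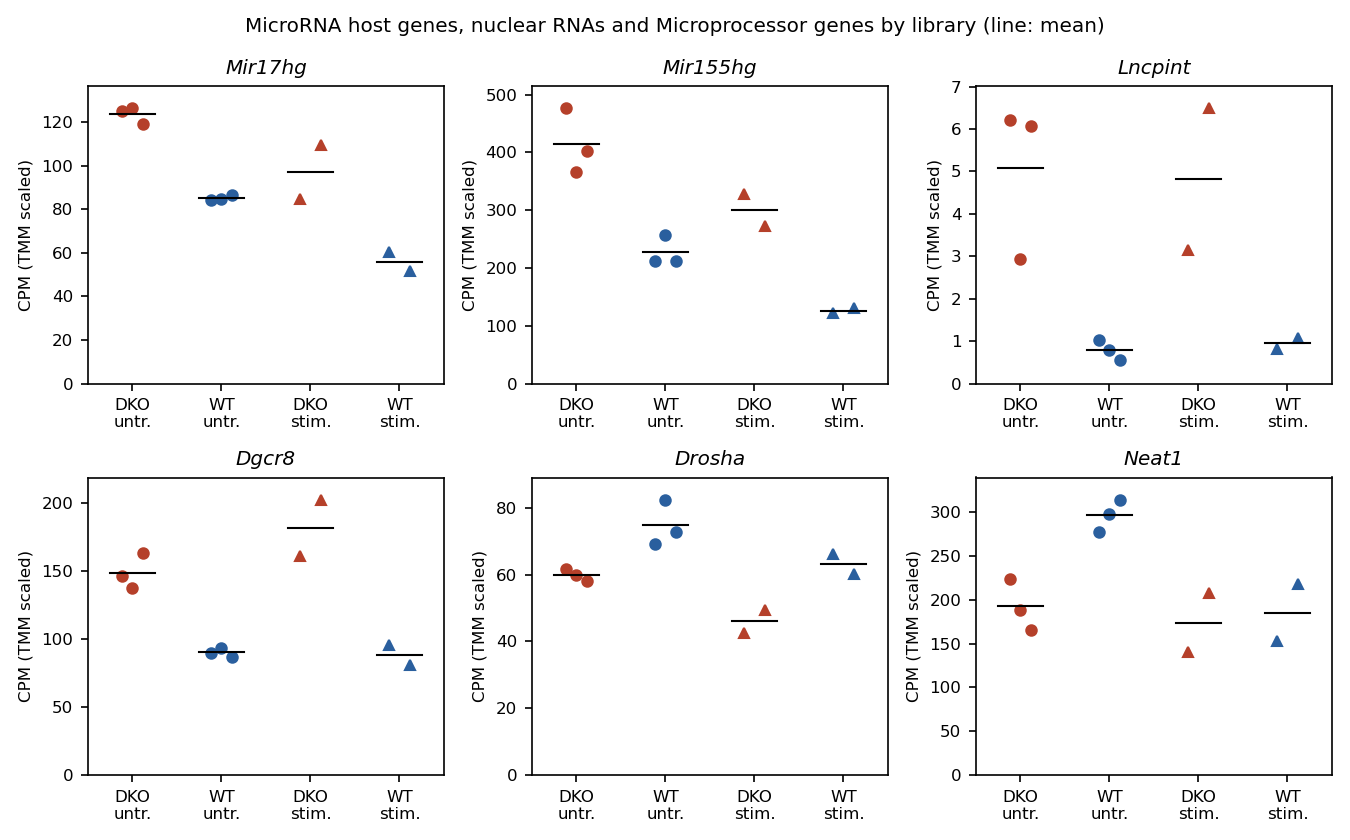
CPM per library (points) and group mean (line) of 2 microRNA host genes, 2 nuclear RNAs and 2 Microprocessor genes, in DKO and WT cells, untreated (circles) and stimulated for 48 h (triangles). Mir17hg, Mir155hg, Lncpint and Dgcr8 are higher in every DKO library of either state, and Neat1 overlaps between the genotypes in stimulated cells.

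The list named nuclear long noncoding RNAs had a median log2 fold change of 0.36, against -0.01 over all tested genes. Where in the cell its members lie was not measured, and its name does not settle that. The list gave the highest share of calls of all lists, with 14 of 28 members higher and 1 lower. Most were host transcripts of small nucleolar RNAs, whose spliced product carries short reading frames and is degraded by nonsense-mediated decay. Snhg15 had 181, 196 and 182 CPM in the DKO libraries and 87.6, 78.9 and 86.5 CPM in the WT libraries (log2 1.14 ± 0.08), and Zfas1 had 161, 181 and 162 CPM in the DKO libraries and 109, 100.02 and 102 CPM in the WT libraries (log2 0.70 ± 0.08). Gas5 and Dancr were higher by smaller amounts, with log2 changes of 0.29 ± 0.08 and 0.45 ± 0.12. In the additional WT libraries several of these hosts lay at or above the DKO values, at 209 and 209 CPM for Snhg15, 287 and 306 CPM for Zfas1 and 1017 and 988 CPM for Gas5, and only 4 of 14 higher members had both on the WT side. Without DKO 1, DKO 3, WT 1 or WT 3 the count was 9, 9, 8 or 5, in that order. Lncpint (chr6:31059500-31197423, minus strand), an RNA induced by p53, had 6.204, 2.94 and 6.07 CPM in the DKO libraries and 1.02, 0.783 and 0.551 CPM in the WT libraries and a log2 change of 2.68 ± 0.37 (adjusted p = 0.00332). Neat1, the scaffold RNA of paraspeckles, was the lower one, with 224, 188 and 166 CPM in the DKO libraries and 277, 298 and 315 CPM in the WT libraries (log2 -0.62 ± 0.11, adjusted p = 0.00707). In stimulated cells 14 of 27 tested members were higher and 0 lower, against 5.09% and 6.17% of all genes tested there. A fit on 5 libraries lost Gas5 (without any 1 library but WT 2) and Dancr (without any 1 library), with adjusted p up to 0.162.

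Core spliceosome genes were higher or did not pass. Of 40 tested members 11 were higher and 0 lower, with a median log2 change of 0.10. Genes of Sm proteins, which form the ring around spliceosomal small nuclear RNAs, made up 6 of the 11. Snrpe (chr1:133531609-133538029, minus strand) had 39.03, 46.6 and 40.5 CPM in the DKO libraries and 26.01, 24.8 and 27.4 CPM in the WT libraries, a log2 change of 0.69 ± 0.10 (adjusted p = 0.00349). Snrpg changed by 0.86 ± 0.16 and Snrpd2 by 0.46 ± 0.09. U2af1, the subunit that reads the end of an intron, had 109.5, 99.4 and 112 CPM in the DKO libraries and 79.7, 81.8 and 76.5 CPM in the WT libraries (log2 0.43 ± 0.08). Both additional WT libraries were on the WT side for 9 of 11 of these genes, and U2af1 was not one of them. Without DKO 2, WT 1 or WT 3 the count was 7, 7 or 2, in that order. Not called once a library was left out were Snrpd2 and U2af1 (without WT 3), with adjusted p up to 0.0522.

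Of 19 telomere genes 4 were higher and 2 lower. The 4 were the proteins of box H/ACA particles, which hold both the telomerase RNA and the small nucleolar RNAs that guide pseudouridylation, and all 4 were called. Nop10 had 213, 214 and 189 CPM in the DKO libraries and 146, 158 and 132 CPM in the WT libraries (log2 0.50 ± 0.09), and Dkc1, the pseudouridine synthase, had 395, 380.4 and 365 CPM in the DKO libraries and 294, 311 and 299.9 CPM in the WT libraries (log2 0.33 ± 0.07). Gar1 and Nhp2 changed by 0.52 ± 0.14 and 0.25 ± 0.07. The lower ones were Stn1 and Pot1a, which bind single-stranded telomere DNA, with log2 changes of -0.59 ± 0.12 and -0.29 ± 0.08. WT and both additional WT libraries lay on the same side for 4 of 4 higher and 1 of 2 lower genes. Leaving out 1 library gave 1 to 3 higher and 0 or 1 lower genes, the fewest without WT 3. Calls lost with 1 library left out were those of Dkc1 and Stn1 (without WT 3), Gar1 (without any 1 library but WT 2) and Nhp2 and Pot1a (without any 1 library), with adjusted p up to 0.188.

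Translation factor transcripts were higher for 16 of 46 members and lower for 1, with a median log2 change of 0.21. Eef1a1, which brings tRNAs to the ribosome, had 21392, 22196 and 21096 CPM in the DKO libraries and 14288, 14545 and 14123 CPM in the WT libraries (log2 0.59 ± 0.07, adjusted p = 0.00206). Eef2, the translocase, had 6052, 5868 and 6266 CPM in the DKO libraries and 4494, 4674 and 4450.1 CPM in the WT libraries (log2 0.42 ± 0.07). Each of these had all DKO values above all WT values. Smaller changes came from initiation factors such as Eif2a (0.38 ± 0.06) and the eIF3 subunit Eif3f (0.40 ± 0.07). The exception was Eif4g1, the scaffold of cap-dependent initiation, with 629, 548 and 535 CPM in DKO cells, against 783, 930.4 and 817 CPM in WT cells (log2 -0.56 ± 0.09, adjusted p = 0.00564), although the additional WT libraries had 314 and 338 CPM, below the DKO values. Both were on the WT side for 12 of 16 higher members. Without DKO 2, DKO 3, WT 1 or WT 3 the count was 8, 6, 9 or 4, in that order. Of 23 cytosolic aminoacyl-tRNA synthetases, which charge tRNAs, 0 were called by edgeR, though 18 had a positive change.

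Nuclear genes for building mitochondria were higher as well. Of 77 mitochondrial ribosomal proteins 22 were higher and 3 lower (median log2 0.17), and of 30 genes of mitochondrial protein import 11 were higher and 0 lower (median log2 0.23). Tomm20, the receptor of the outer membrane translocase, had 191, 194 and 162 CPM in the DKO libraries and 113, 132 and 114 CPM in the WT libraries (log2 0.61 ± 0.10), and Tomm7, a small subunit of the same pore, had 96.8, 115 and 99.5 CPM in the DKO libraries and 67.9, 71.8 and 62.5 CPM in the WT libraries (log2 0.62 ± 0.09, adjusted p = 0.00385). The matrix chaperonin pair moved together, Hspe1 by 0.52 ± 0.08 and Hspd1 by 0.22 ± 0.06. Among ribosomal proteins Mrps16 changed by 0.47 ± 0.09 and Mrpl39 by 0.37 ± 0.07. The 3 lower ones included Mrpl3, with 58.5, 55.7 and 43.99 CPM in the DKO libraries and 96.96, 96.3 and 82.9 CPM in the WT libraries (log2 -0.80 ± 0.12, adjusted p = 0.00375), and Mrps9 (-0.45 ± 0.09) and Mrps15 (-0.35 ± 0.08). Slc25a3, the phosphate carrier of the inner membrane, belonged to neither list and fell to 296, 319 and 259 CPM in DKO cells, against 609, 612 and 589 CPM in WT cells (log2 -1.05 ± 0.09, adjusted p = 0.0008). Both additional WT libraries were on the WT side for 21 of 22 higher ribosomal and 11 of 11 higher import genes. They were for 1 of 3 lower ribosomal genes, and Mrpl3 had 46.99 and 61.3 CPM there, at the level of the DKO libraries. Without DKO 3 the count of lower ribosomal genes was 1. For the ribosomal proteins: without DKO 2, DKO 3 or WT 3 the count was 10, 11 or 2, in that order. For import: without DKO 1, DKO 2, DKO 3 or WT 3 the count was 5, 4, 7 or 3, in that order. Leaving out 1 library ended the call of Mrps9 (without DKO 3), Mrps15 (without DKO 1, DKO 3, WT 1 or WT 3) and Hspd1 (without any 1 library), with adjusted p up to 0.199.

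Protein folding genes of the cytosol were higher in 12 of 40 cases and lower in 0 (median log2 0.22). Hsp90ab1, the constitutive HSP90, had 8933, 7952 and 8142 CPM in the DKO libraries and 6434, 6927 and 6255 CPM in the WT libraries (log2 0.35 ± 0.08). Cct4, a subunit of the chaperonin that folds actin and tubulin, changed by 0.31 ± 0.06, and Pfdn5, a subunit of prefoldin, which hands chains to it, by 0.39 ± 0.07. Heat-inducible Hspa1b was low in both genotypes, with 2.58, 5.89 and 4.67 CPM in the DKO libraries and 1.12, 1.085 and 2.203 CPM in the WT libraries (log2 1.56 ± 0.39). Both additional WT libraries were on the WT side for 11 of 12 members. Without DKO 2, DKO 3, WT 1 or WT 3 the count was 5, 1, 5 or 2, in that order. The call was lost with 1 library left out for Cct4 and Hsp90ab1 (without DKO 3 or WT 3) and Hspa1b (without DKO 2, DKO 3 or WT 1), with adjusted p up to 0.0847.

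Enzymes of nucleotide and one-carbon synthesis were split, with 13 of 51 higher and 5 lower (median log2 0.10). The higher ones included the first and a later step of purine synthesis, Ppat (log2 0.33 ± 0.07) and Adsl (0.37 ± 0.07), and the serine hydroxymethyltransferase Shmt1 (0.41 ± 0.07). The CTP synthases went apart. Ctps had 181, 166 and 172 CPM in the DKO libraries and 132, 130.02 and 129 CPM in the WT libraries (log2 0.40 ± 0.07, adjusted p = 0.00561), and Ctps2 had 17.1, 22.8 and 18.3 CPM in the DKO libraries and 30.3, 33.3 and 36.1 CPM in the WT libraries (log2 -0.78 ± 0.13, adjusted p = 0.00598). Both mitochondrial deoxynucleoside kinases were lower, with log2 changes of -0.88 ± 0.13 for Dguok and -0.42 ± 0.11 for Tk2, as was Tyms, the thymidylate synthase, with -0.62 ± 0.18. Without DKO 2, DKO 3, WT 1 or WT 3 the count of higher genes was 7, 5, 8 or 3, in that order. Of the 5 lower genes 3 were called without DKO 3, without WT 1 and without WT 3. Among the higher and lower genes, 12 of 13 and 5 of 5 had both additional WT libraries on the WT side. With 1 library fewer the threshold was missed by Ppat (without WT 3), Tyms (without DKO 1, DKO 3, WT 1 or WT 3) and Tk2 (without any 1 library but WT 2), with adjusted p up to 0.114.

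Polycomb genes, whose products write and read repressive marks on histones, were higher in 8 of 36 cases and lower in 3. Higher were members of the complex that methylates histone H3. Eed, a core subunit, had 161, 173 and 166 CPM in the DKO libraries and 128, 119 and 130.5 CPM in the WT libraries (log2 0.40 ± 0.07), Ezh2, the methyltransferase, changed by 0.26 ± 0.06 and Aebp2 by 0.34 ± 0.06. Lower were Cbx6, a reader of the mark, with 16.4, 25.02 and 22.2 CPM in the DKO libraries and 42.5, 35.2 and 50.3 CPM in the WT libraries (log2 -1.01 ± 0.17, adjusted p = 0.00668), Pcgf2 (-1.40 ± 0.31) and Phc1 (-0.44 ± 0.11). On the WT side lay both additional WT libraries for 2 of 8 of the higher genes, and Eed had 197 and 187 CPM there, above the DKO values. Without DKO 2, DKO 3, WT 1 or WT 3 the count was 4, 3, 4 or 1, in that order. A fit on 5 libraries lost Aebp2 (without WT 3), Pcgf2 (without DKO 3, WT 1 or WT 3), Phc1 (without any 1 library but WT 2) and Ezh2 (without any 1 library), with adjusted p up to 0.155.

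Lysosomes digest material taken up or sorted by the cell, and in B cells they bear on the processing of antigen. Of 48 tested genes of the lysosome and its proton pump 15 were lower in DKO cells and 0 higher, with a median log2 change of -0.20. Gaa, which breaks down glycogen (chr11:119158713-119176280, plus strand), had 33.4, 28.7 and 33.2 CPM in the DKO libraries and 49.5, 61.03 and 52.01 CPM in the WT libraries (log2 -0.77 ± 0.11, adjusted p = 0.00331). Ctsh, a cathepsin protease, had 80.97, 88.4 and 85.9 CPM in the DKO libraries and 123, 116 and 118 CPM in the WT libraries (log2 -0.48 ± 0.07, adjusted p = 0.00372). Glb1, the lysosomal galactosidase, had 17.6, 18.1 and 18.2 CPM in the DKO libraries and 26.1, 24.5 and 26.9 CPM in the WT libraries (log2 -0.52 ± 0.10). In each of these genes every DKO library was below every WT library. Changes of Ctsb (-0.40 ± 0.08), Ctsa (-0.38 ± 0.07) and the membrane protein Lamp1 (-0.37 ± 0.09) were smaller. In the additional WT libraries, both values were on the WT side for 7 of 15 genes, and Gaa, with 23.5 and 27.7 CPM there, was not among them. Without DKO 3 or WT 3 the count was 4 or 2, in that order. In stimulated cells 0 of 48 tested members were higher and 3 lower, near the shares over all genes there. Not called once a library was left out were Ctsa and Glb1 (without WT 3), Ctsb (without DKO 3 or WT 3) and Lamp1 (without DKO 3, WT 1 or WT 3), with adjusted p up to 0.0865.

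Many lysosomal promoters hold the palindrome TCACGTGA, the core of the element read by TFEB and related factors. The promoter of Ctsa (chr2:164833523-164833822, plus strand, GRCm38.p6, RefSeq, 250 bases before to 50 after the start) is shown because it holds 2 copies, in capitals.
Ctsa: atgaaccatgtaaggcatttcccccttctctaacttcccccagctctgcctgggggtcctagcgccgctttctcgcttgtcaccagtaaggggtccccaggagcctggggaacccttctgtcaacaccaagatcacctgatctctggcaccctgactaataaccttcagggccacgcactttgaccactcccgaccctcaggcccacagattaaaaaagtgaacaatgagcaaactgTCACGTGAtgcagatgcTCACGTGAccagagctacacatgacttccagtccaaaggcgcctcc
Promoters were matched for 37 of the 48 tested genes. The palindrome, which reads the same on both strands and contains the E-box CACGTG, was found in 7 of the 37 (18.9%), against 2.37% of 9478 tested genes with a promoter. It was in 1 of 10 matched genes that were lower and in 6 of 27 that were not called. The shorter E-box was in 5 of the 10 and 8 of the 27, against 12.2% of tested genes. Whether either bears on the lower levels was not tested.

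Ion channels set the calcium entry that follows the B cell receptor, and of 50 tested channel and calcium genes 10 were lower and 0 higher (median log2 -0.20). The largest change in this list was in Cacna1e, a voltage-gated calcium channel subunit (chr1:154266477-154760247, minus strand), with 10.2, 10.2 and 8.14 CPM in the DKO libraries and 30.002, 33.6 and 25.9 CPM in the WT libraries and a log2 change of -1.64 ± 0.14 (adjusted p = 0.000939). Kcnq5, a voltage-gated potassium channel, had 20.4, 24.9 and 21.5 CPM in the DKO libraries and 39.9, 46.5 and 43.9 CPM in the WT libraries (log2 -0.96 ± 0.11, adjusted p = 0.00174). Kcnn4, a potassium channel opened by calcium, had 4.72, 5.44 and 4.14 CPM in the DKO libraries and 14.9, 8.86 and 13.3 CPM in the WT libraries (log2 -1.37 ± 0.22). No DKO value reached the lowest WT value in any of these. The store-operated channel subunits Orai2 and Orai3 fell by 0.87 ± 0.16 and 1.01 ± 0.15. Trpv2 changed by -0.66 ± 0.09 and Nfatc1, a transcription factor that calcium activates, by -0.59 ± 0.08. The additional WT libraries both sided with WT for 7 of 10 genes, Trpv2 and Orai3 not included. Leaving out 1 library gave 7 to 10 calls, and in stimulated cells 1 of 50 tested members were higher and 9 lower.

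Phosphoinositide 3-kinases carry receptor signals by phosphorylating membrane lipids. In this pathway 9 of 41 genes were lower and 0 higher (median log2 -0.17). Pik3cg, the catalytic subunit p110-gamma that G proteins activate, had 7.82, 6.21 and 4.94 CPM in the DKO libraries and 15.1, 16.3 and 18.2 CPM in the WT libraries (log2 -1.38 ± 0.18, adjusted p = 0.00272). Its adaptor Pik3r6 had 3.04, 5.95 and 4.54 CPM in the DKO libraries and 13.3, 10.7 and 10.8 CPM in the WT libraries (log2 -1.36 ± 0.24). Both phosphatases that remove the 4-phosphate were lower as well, Inpp4b with 12.1, 20.2 and 16.6 CPM in the DKO libraries and 33.6, 51.2 and 39.1 CPM in the WT libraries (log2 -1.34 ± 0.20) and Inpp4a with a log2 change of -0.68. Pip5k1c and Pip4k2b, kinases that make phosphatidylinositol bisphosphates, changed by -0.61 ± 0.07 and -0.62 ± 0.08. Genes that promote and genes that end this signal were thus both among the lower ones. On the WT side lay both additional WT libraries for 6 of 9 genes. They had 44.8 and 55.5 CPM of Pip5k1c and 2.89 and 2.81 CPM of Pik3r6, below all DKO values.

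Genes of G protein and cyclic nucleotide signalling were lower in 8 of 58 cases and higher in 2, 13.8% against 10.6% of all tested genes being lower. Pde1b, which degrades cyclic nucleotides when calcium rises, had 9.56, 10.8 and 12.3 CPM in the DKO libraries and 28.98, 20.4 and 29.8 CPM in the WT libraries (log2 -1.28 ± 0.17, adjusted p = 0.00295). Adcy7, an adenylyl cyclase, had 63.7, 70.3 and 74.1 CPM in the DKO libraries and 116, 101 and 128 CPM in the WT libraries (log2 -0.73 ± 0.10). Arrb1, an arrestin that switches receptors off, changed by -1.29 ± 0.18 and Rgs10, which speeds the shut-off of G proteins, by -1.03 ± 0.18. In lipid metabolism 12 of 56 genes were lower and 3 higher. Among the lower were Pld3 (-0.94 ± 0.13) and Pld4 (-0.85 ± 0.15), endosomal nucleases named after phospholipase D, Plcb2 (-0.70 ± 0.10), a phospholipase C, and Mboat7 (-0.58 ± 0.09), which attaches arachidonate to phosphatidylinositol. Sgpp1, which dephosphorylates sphingosine 1-phosphate, was higher by 0.48 ± 0.09. In the additional WT libraries, both values were on the WT side for 7 of 8 G protein and 7 of 12 lipid genes. Pld3, Pld4, Plcb2 and Mboat7 were not among the lipid genes with both on that side, and neither was the higher Sgpp1. For the 8 genes: without DKO 1, DKO 3, WT 1 or WT 3 the count was 5 in each case. For the 12: without DKO 3 or WT 3 the count was 7 or 6, in that order.

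Adhesion genes were lower in 7 of 35 cases and higher in 1. Pecam1, also one of the 7 genes taken as markers of stroma and vessels, had 24.1, 33.1 and 28.9 CPM in the DKO libraries and 72.7, 51.7 and 61.9 CPM in the WT libraries (log2 -1.11 ± 0.15, adjusted p = 0.00295). Rasgrp2, which activates the integrin switch Rap1, had 3.88, 6.46 and 4.87 CPM in the DKO libraries and 17.2, 11.3 and 15.5 CPM in the WT libraries (log2 -1.53 ± 0.23). Adam19, a membrane protease, changed by -0.71 ± 0.08 and Itgal, the alpha chain of LFA-1, by -0.34 ± 0.07. Its ligand Icam1 was the higher one, with 251, 223 and 233 CPM in the DKO libraries and 185, 181 and 160.5 CPM in the WT libraries (log2 0.43 ± 0.08, adjusted p = 0.00898). The 7 stromal markers, Pecam1 included, summed to 26.0 to 34.9 CPM in DKO and 54.6 to 76.3 CPM in WT libraries. Pecam1 made up most of each sum, and Col3a1 had no count in any library. Of 3 stromal markers tested, 1 was lower, namely Pecam1, and 0 were higher. The part of stromal cells in these changes was not tested. The additional WT libraries both sided with WT for 6 of 7 lower genes. Without WT 3 the count was 4. Calls lost with 1 library left out were those of Icam1 and Itgal (without WT 3), with adjusted p up to 0.0622.

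Of 63 actin genes 12 were lower and 1 higher. Coro2a, a coronin that binds actin filaments, had 86.7, 81.7 and 74.97 CPM in the DKO libraries and 125, 122 and 111 CPM in the WT libraries (log2 -0.55 ± 0.08), and the filament capper Capg and Coro1b changed by -0.51 ± 0.08 and -0.59 ± 0.10. Vim, of intermediate filaments, had 31.5, 44.3 and 35.4 CPM in the DKO libraries and 98.2, 46.03 and 80.7 CPM in the WT libraries (log2 -1.02 ± 0.25), so that WT 2 was near the DKO libraries. Gsn, which severs actin, changed by -1.19 ± 0.29. Tmsb4x, which holds actin monomers in store, was the higher one (log2 0.38 ± 0.10). The additional WT libraries both sided with WT for 4 of 12 lower actin genes, Coro2a, Capg and Coro1b not included. Without DKO 3 or WT 3 the count was 7 or 4, in that order. Leaving out 1 library ended the call of Gsn (without DKO 3, WT 1 or WT 3), Tmsb4x (without DKO 2, DKO 3 or WT 3) and Vim (without DKO 1, DKO 3, WT 1 or WT 3), with adjusted p up to 0.0937.

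**Figure D3:**
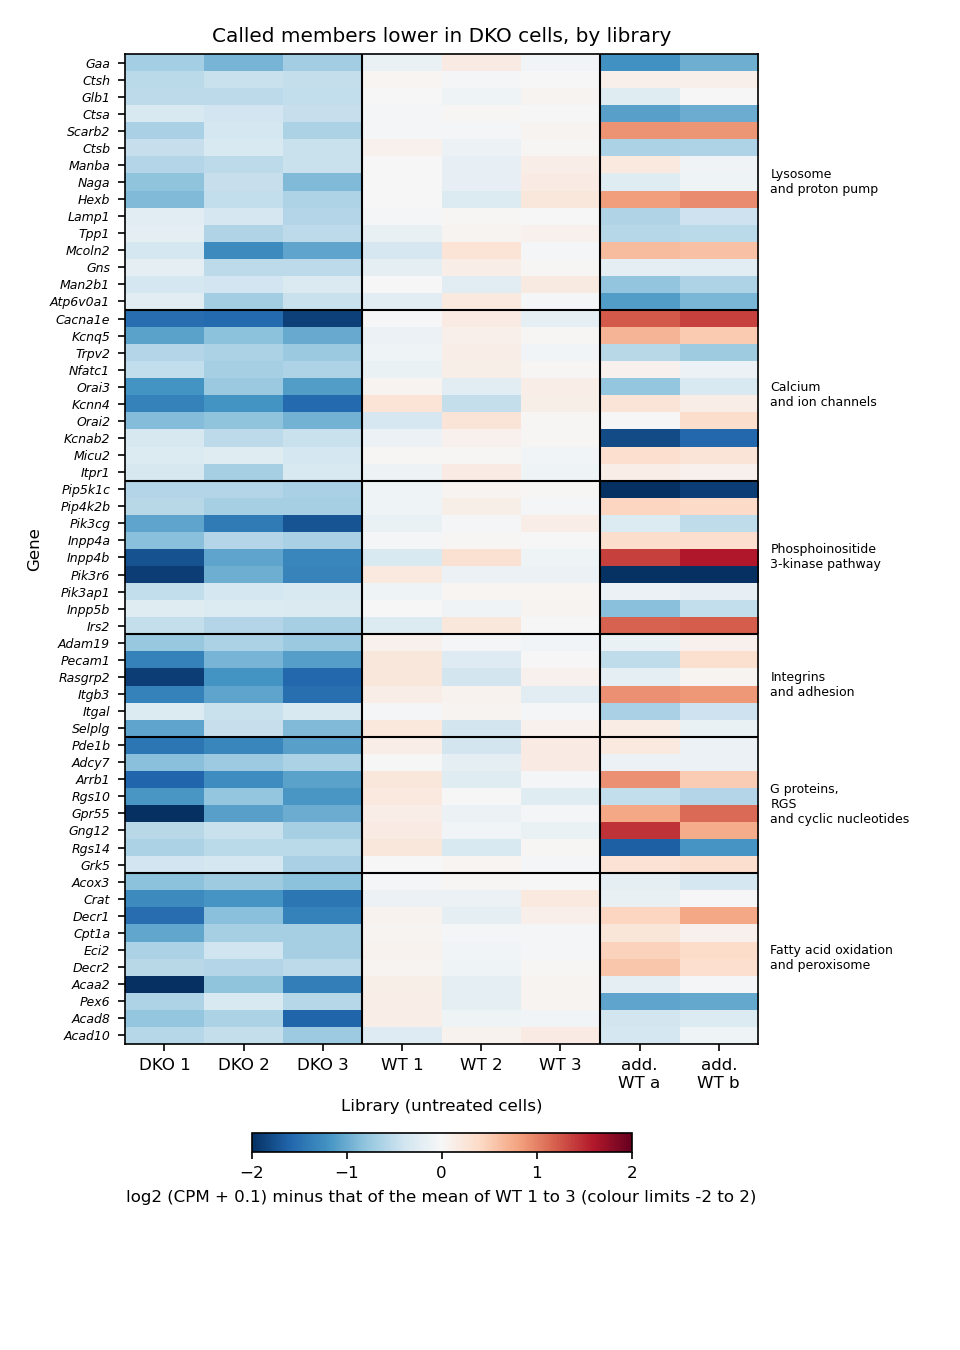
Log2 (CPM + 0.1) of called members, lower in DKO cells, of 6 lists as far as they are reported here, minus the log2 of the mean of WT 1 to 3, by library (columns: 3 DKO, 3 WT and the 2 additional WT libraries of untreated cells). The genes were chosen for being lower, so the DKO columns are blue by choice. In the additional WT columns Cacna1e and Inpp4b lie at or above the WT mean, and Pip5k1c, Pik3r6 and Gaa lie below the DKO values.

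Fatty acid oxidation and peroxisome genes were lower in 11 of 54 cases and higher in 1. Acox3, a peroxisomal oxidase, had 33.8, 37.5 and 34.2 CPM in the DKO libraries and 59.95, 61.3 and 60.5 CPM in the WT libraries (log2 -0.78 ± 0.08, adjusted p = 0.00138), and Decr1, which prepares unsaturated fatty acids for oxidation, had 11.1, 18.4 and 12.7 CPM in the DKO libraries and 34.1, 28.5 and 34.7 CPM in the WT libraries (log2 -1.21 ± 0.18). Cpt1a, the gate of mitochondrial entry, had 7.43, 9.92 and 9.75 CPM in the DKO libraries and 16.2, 15.2 and 15.1 CPM in the WT libraries (log2 -0.78 ± 0.15). Crat (-1.32 ± 0.18) and Acaa2 (-1.38 ± 0.31) were lower too. Pex10, a ubiquitin ligase of peroxisome import, was the higher one, with 26.6, 26.7 and 32.2 CPM in the DKO libraries and 9.81, 12.7 and 13.1 CPM in the WT libraries (log2 1.26 ± 0.14, adjusted p = 0.00174). In the additional WT libraries, both values were on the WT side for 10 of 11 genes. Without DKO 3 or WT 3 the count was 5 or 6, in that order. The call was lost with 1 library left out for Acaa2 (without DKO 3 or WT 3), with adjusted p up to 0.068.

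Of 44 antioxidant genes 6 were lower and 3 higher, near the share over all genes. The additional WT libraries were on the WT side for 3 of 3 higher and 5 of 6 lower ones, and leaving out 1 library gave 2 (without WT 3) to 9 (without WT 2) lower and 0 (without WT 3) to 2 higher genes. Those that fell most were membrane and mitochondrial glutathione transferases present at low levels. Mgst2 had 1.03, 1.15 and 1.47 CPM in the DKO libraries and 5.06, 4.88 and 3.304 CPM in the WT libraries (log2 -1.85 ± 0.28, adjusted p = 0.00394), Mgst1 changed by -2.25 ± 0.63 and Gstk1 by -1.30 ± 0.34. Keap1, the sensor that holds NRF2 back, had 47.9, 51.1 and 48.7 CPM in the DKO libraries and 74.9, 63.9 and 68.3 CPM in the WT libraries (log2 -0.49 ± 0.08), and the heme exporter Flvcr1, among 33 iron and heme genes of which 5 were lower and 2 higher, changed by -0.83 ± 0.10. In that list the additional WT libraries were on the WT side for 1 of 2 higher and 2 of 5 lower genes, and the lower count was 2 without DKO 3, WT 1 or WT 3, and the higher count 0 without DKO 3 or WT 3. Lists of the proteasome (3 higher and 1 lower of 47), histone methylation (3 and 1 of 53), mTORC1 (2 and 1 of 47), cohesin and CTCF (1 and 0 of 27) and RNA exosome and decay (2 and 3 of 39) held calls below the share over all genes in both directions. Of 27 JAK-STAT and SOCS genes 6 were lower and 0 higher, but both additional WT libraries were on the WT side for only 1 of 6, and the count was 1 without DKO 2, DKO 3 or WT 3. Of 38 autophagy genes 4 were lower and 0 higher, the share over all genes, with 8 lower without DKO 1 and 2 without DKO 2, DKO 3, WT 1 or WT 3. With 1 library fewer the threshold was missed by Mgst1 (without DKO 1, DKO 2 or WT 3) and Gstk1 (without DKO 1, DKO 2, WT 1 or WT 3), with adjusted p up to 0.151.

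The protein-coding genes with the largest rises among those the naming rule took were Nfe2 and Gh. Nfe2, an erythroid and megakaryocyte transcription factor (chr15:103156639-103166830, minus strand), lies just beyond the end of Hnrnpa1 and had 125, 116 and 134 CPM in the DKO libraries and 0.358, 0.361 and 0.4005 CPM in the WT libraries (log2 8.36 ± 0.14). The additional WT libraries had 0.197 and 0.794 CPM, and summed erythroid markers were 1.26 to 5.45 CPM in DKO and 1.41 to 32.3 CPM in WT libraries. No source used here gives the strand setting of the counting, and reads of neighbouring or overlapping genes may be assigned to the wrong one. Gh encodes growth hormone, which is made by the pituitary, and lies on chr11:106191097-106192691, minus strand, 9.48 kb from Cd79b, a gene of the B cell receptor. It had 10.8, 10.9 and 13.8 CPM in the DKO libraries and 1.02, 1.21 and 2.102 CPM in the WT libraries, a log2 change of 3.02 ± 0.27 (adjusted p = 0.000942). Tcam1, on the other side of Gh, had 6.66, 7.87 and 9.08 CPM in the DKO libraries and 3.42, 1.87 and 2.403 CPM in the WT libraries (log2 1.61 ± 0.25), while Cd79b did not pass (log2 -0.28 ± 0.11, adjusted p = 0.0951). The additional WT libraries had 9.202 and 11.5 CPM of Gh, near the DKO values, but 1.97 and 1.34 CPM of Tcam1, near the WT values.

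Other genes that rose were Has3, a hyaluronan synthase, with 9.43, 8.89 and 12.3 CPM in the DKO libraries and 1.79, 2.59 and 2.65 CPM in the WT libraries (log2 2.12 ± 0.22), and the cytoplasmic tyrosine kinase Yes1, with 18.8, 17.3 and 19.1 CPM in the DKO libraries and 5.01, 6.63 and 5.51 CPM in the WT libraries (log2 1.69 ± 0.15, adjusted p = 0.000939). The transcription factor Deaf1 (chr7:140877093-140907603, minus strand) had 48.7, 43.9 and 46.1 CPM in the DKO libraries and 15.4, 14.3 and 14.97 CPM in the WT libraries (log2 1.63 ± 0.09, adjusted p = 0.000164), with little spread in either genotype. Dusp14, a phosphatase of MAP kinases, changed by 1.34 ± 0.10 and the receptor phosphatase Ptprs by 1.42 ± 0.16. The chemokine Ccl22 had 1394, 2104 and 2325 CPM in the DKO libraries and 678, 420.1 and 594 CPM in the WT libraries (log2 1.78 ± 0.21). In the additional WT libraries Dusp14 was above the DKO values, at 40.2 and 42.7 CPM, and Ccl22 had 1017 and 1649 CPM and Ptprs 80.4 and 41.4 CPM. Further large rises were those of Atl1 (1.59 ± 0.20), which shapes the endoplasmic reticulum, Basp1 (1.31 ± 0.15), Rskr (2.13 ± 0.31), Glt28d2 (2.09 ± 0.26) and the metallothionein Mt2 (2.67 ± 0.48). Basp1 had 108 and 99.6 CPM and Mt2 had 127 and 52.6 CPM in the additional WT libraries, and with those in the WT group the log2 change of Mt2 turned to -0.91.

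Among the genes that fell most, Il10 encodes an anti-inflammatory cytokine and had 1.49, 0.384 and 0.2003 CPM in the DKO libraries and 6.8998, 5.06 and 3.604 CPM in the WT libraries (log2 -2.89 ± 0.54, adjusted p = 0.00897). Etv5, an ETS transcription factor, had 1.29, 1.66 and 1.202 CPM in the DKO libraries and 5.98, 5.12 and 6.96 CPM in the WT libraries (log2 -2.11 ± 0.24). Bmf, a pro-apoptotic protein of the BCL2 family, had 3.88, 5.69 and 3.27 CPM in the DKO libraries and 13.6, 13.01 and 15.6 CPM in the WT libraries (log2 -1.71 ± 0.21). The groups did not overlap in any of them, which the naming rule required of genes with the largest change. S1pr3, a receptor for sphingosine 1-phosphate, changed by -1.98 ± 0.28, the secreted proteins Spp1 and Lgals1 by -1.77 ± 0.34 and -1.70 ± 0.24, and the adhesion receptor Cd2 by -1.79 ± 0.15. Chrnb1 (-1.81 ± 0.19), Lbhd1 (-2.04 ± 0.20), Nrp1 (-1.71 ± 0.19), Pafah2 (-1.79 ± 0.25) and Tm6sf1 (-1.68 ± 0.20) were lower by similar amounts. Both additional WT libraries were on the WT side for these falling genes except Spp1 and Nrp1. They had 2.30 and 3.12 CPM of Spp1 and 2.30 and 5.74 CPM of Nrp1.

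The calls differed by the kind, level and length of the gene. Of 11154 tested protein-coding genes 934 were higher (8.37%) and 1333 lower, while of 698 processed pseudogenes 17.0% were higher and 1.15% lower. Reads of a pseudogene and of its parent can be confused, so the pseudogene counts are uncertain. Among protein-coding genes the share called higher was 4.53% in the second lowest of 5 equal bins by mean CPM and 15.5% in the highest, and the share called lower was 13.5% and 7.89%. From the shortest to the longest of 5 bins by exonic length the share higher was 11.2%, 8.70%, 8.48%, 6.86% and 6.59%. Within 1 Mb of Hnrnpa1 9 of 24 tested genes were called (37.5%), against 19.5% of all tested genes. Of 5 within 1 Mb of Hnrnpa2b1 2 were called, the targeted gene itself not counted in either window. From 1 to 5 Mb the shares called were 15.5% for Hnrnpa1 and 25.4% for Hnrnpa2b1. From 5 to 20 Mb they were 17.6% and 7.47%.

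**Figure D4:**
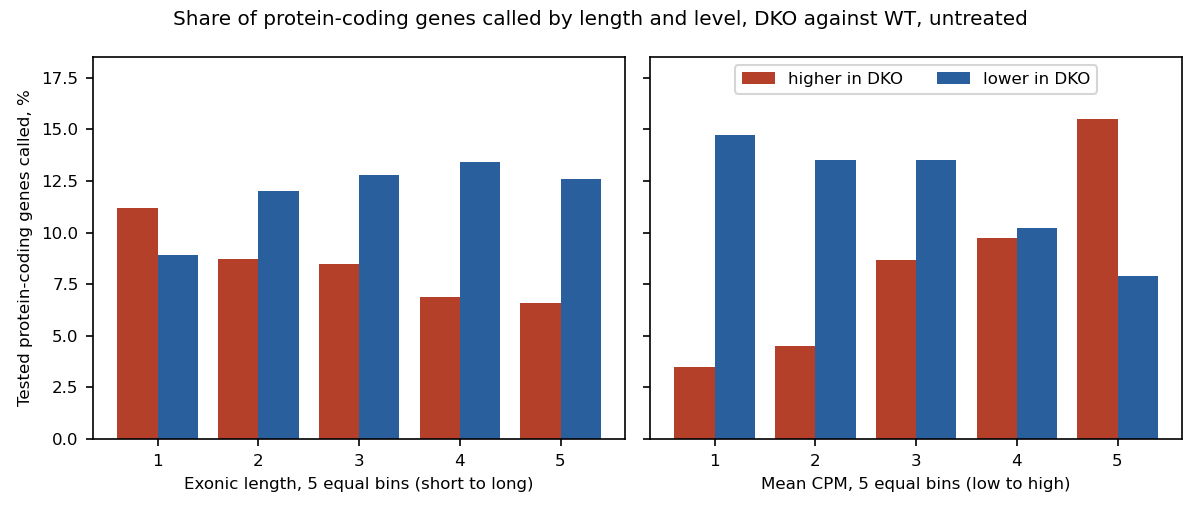
Share of tested protein-coding genes called higher or lower in untreated DKO against WT cells, in percent, in 5 equal bins of exonic length (left) and of the mean CPM over the 6 libraries (right). Calls of higher genes reach 15.5% in the bin with the highest level.

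In stimulated cells 11.3% of 14430 tested genes were called between DKO and WT, 5.09% as higher and 6.17% as lower. Of 13068 genes tested in both states, 893 were called in both and in the same direction, which is 34.4% of the untreated calls and 893 of 1489 stimulated calls, and 1 was called in opposite directions. Of the genes named above, 138 called ones were tested in stimulated cells, and 134 had the same direction there, 86 of them past the threshold. The 4 exceptions were Tyms, with 0.14 in stimulated cells, and the following. Those are Dmxl2, a subunit of a regulator of the proton pump, Grm6, a glutamate receptor, and Rgs9bp, an anchor of G protein regulators. They were higher in untreated DKO cells by log2 changes of 1.54 ± 0.25, 1.56 ± 0.32 and 1.43 ± 0.24, and had -0.02 ± 0.29 (adjusted p = 0.965), -0.17 ± 0.18 (adjusted p = 0.566) and -0.07 ± 0.19 (adjusted p = 0.827) in stimulated cells. Dmxl2 had 15.4 and 19.1 CPM and Rgs9bp 22.1 and 30.1 CPM in the additional WT libraries, and with those in the WT group the untreated log2 changes turned to -0.04 and -0.41. The differences between the states were not past the threshold (interaction adjusted p = 0.186, 0.162 and 0.0864). The interaction was called for 21 of 15006 genes (0.14%) and for 0 of the genes named above in the edgeR fit over 10 libraries. Of these named genes 27 passed at an unadjusted p of 0.05. Named genes were picked largely for their change or p in untreated cells. No matching counts over all genes are given here, so the 134 and the 27 cannot be read against such a share. With only 2 libraries per genotype in stimulated cells, the count of 21 interaction calls moved between 1 and 1244 when 1 library was left out. It was 1 without the unnumbered stimulated WT library and 1244 without stimulated DKO 2. A fit on 5 libraries lost Grm6 (without DKO 3), with adjusted p up to 0.0562.

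**Figure D5:**
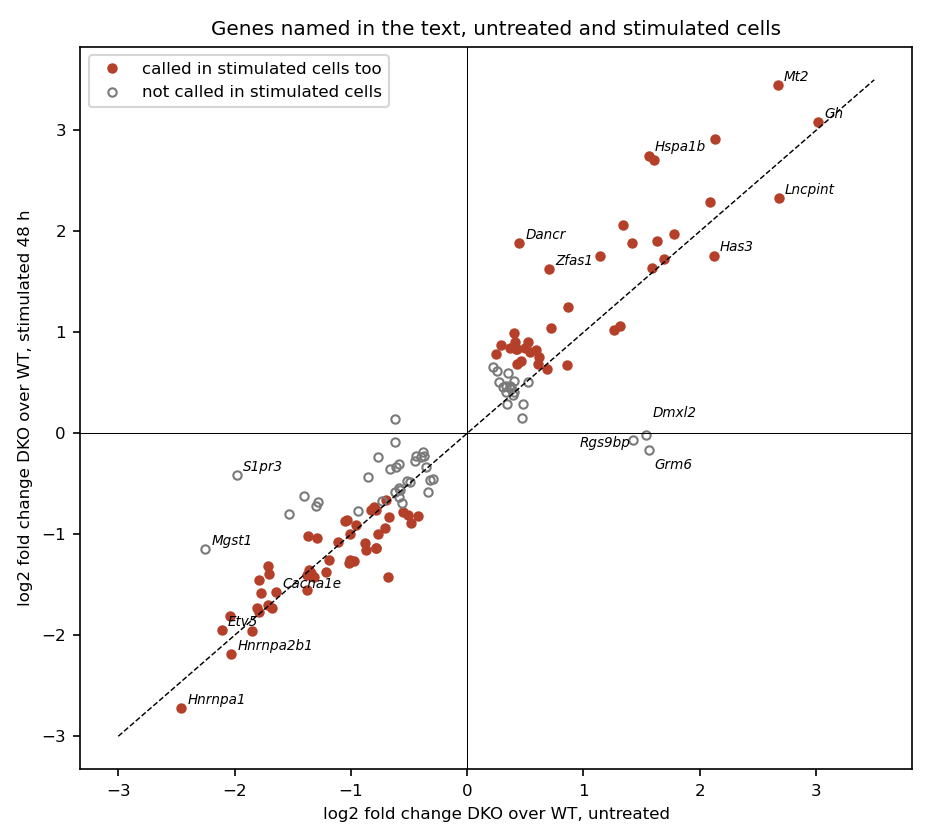
Log2 fold change of DKO over WT in untreated (x axis) and stimulated cells (y axis) for the genes named in the text that were called in untreated cells and tested in both, apart from Nfe2. Filled points were called in stimulated cells too, and the dashed line marks equal change. Dmxl2, Grm6 and Rgs9bp lie near 0 on the y axis.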

How the data were processed

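RNA of splenic B cells was sequenced as poly(A) libraries. Per the submitters' processing notes, reads were handled with FastQC 0.10.1, cutadapt 1.9.1, HISAT2 2.2.1 and HTSeq 0.6.1, and GRCm39 is named as build. No source used here states the strand setting or the annotation release, which leaves overlapping and antisense genes uncertain. The values used are the raw counts per gene that the authors deposited, and the FPKM columns beside them were not used. Genes passing filterByExpr (minimum count 10, minimum total 15) were tested over 3 DKO and 3 WT libraries with edgeR 4.0.16 (TMM scaling, quasi-likelihood test, Benjamini-Hochberg threshold 0.05, in R 4.3.3 with limma 3.58.1). The standard error of a log2 fold change was taken from the change and its F value, and the procedure was tested on simulated data. Gene class came from GENCODE M21 by gene ID, and sequences from RefSeq on GRCm38.p6.

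Genes were named by rule: the targeted genes, up to 20 protein-coding and 5 other genes per direction with the largest change (mean of at least 5 CPM in 1 group, no overlap between groups), 10 per direction with the largest difference in CPM, the 3 members of smallest p in each list, and genes near all or none. Unnamed genes, immunoglobulin and T cell receptor segments, ribosomal protein genes, Meiosin and Stag3 were left out, and the text gives part of these. Further list members were named after their values were seen. Members and lists were chosen with earlier results of these data known. Of the 47 lists, those with a result near the share over all genes are given in part. Same-numbered DKO and WT libraries deviated from their group means with correlations of -0.35, -0.35 and 0.14. The highest over all pairs was 0.44, for DKO 1 with WT 2, which both read as female. With 3 libraries per group these values cannot decide whether the numbers pair the samples, and the labels do not say. Alternatives were RLE scaling, DESeq2 1.42.0, other filters, leaving out each library, a replicate block, a term for libraries that read as female, the additional WT libraries as WT, and 1 fit over 10 libraries. Some genes and a list are not reported here.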

Additional observations from a re-analysis of the deposited data

How the results depend on the processing

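Genes called between untreated DKO and WT numbered 2638 and stayed within 1.5 times of that with RLE scaling (2656), DESeq2 (2880), no low count filter (3100), a strict filter (2747), immunoglobulin genes left out (2609), and without the libraries that read as female (3421). Leaving out 1 library gave 923 to 2779 calls (364 to 1198 higher, 559 to 1581 lower), the fewest without WT 3. With the replicate block 786 were called (327 higher, 459 lower), and whether the numbers pair the samples is not stated. With the 2 additional libraries placed in the WT group there were 319 (89 higher, 230 lower), and 1 fit over 10 libraries gave 795 higher. A term for libraries that read as female gave 4392 (1992 higher, 2400 lower). A log2 change of 1 or more was kept by 623 (196 higher, 427 lower), of which 452 were protein-coding and 171 of other classes. The cause of these shifts was not tested, apart from the last, which adds a limit on size.

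List members called, 364 in all, numbered 122 to 343 with 1 library left out, 104 with the block, 39 with the additional WT libraries, 221 in 1 fit over 10 libraries and 638 with the term for libraries that read as female. The interaction, 21 genes, gave 491 with no low count filter, and 1 to 1244 with 1 library left out. Of 137 named genes 40 lost the call without some library, 88 with that larger WT group, 49 with the block and 15 in 1 fit over 10 libraries. With the larger WT group the log2 change turned sign for Dmxl2 (-0.04), Drosha (0.02), Gas5 (-0.19), Mt2 (-0.91), Rgs9bp (-0.41) and Zfas1 (-0.10). Hnrnpa1 and Hnrnpa2b1 stayed called under every setting run. With no low count filter 2435 of the 2638 genes were among those called. Genes under the filter have few counts, which limits the precision of their values.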
